A study of Mus musculus with 6 samples.

Results

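The genes described here are 10 genes of fungal recognition, taken by symbol from the gene count table, which lists 54532 genes: the C-type lectin receptor genes Clec7a and Clec4n, the Toll-like receptor genes Tlr2 and Tlr4 with their adaptor gene Myd88, the kinase gene Syk, the adaptor genes Card9, Bcl10 and Malt1, and the galectin gene Lgals3. All 10 were found and all 10 passed the filter on low counts, as did 16313 genes in all. RNA with a polyA tail was sequenced from intestinal epithelia of Apoe-/- mice that had been gavaged every 3 days for 2 weeks with Candida albicans, a yeast that lives in the gut, or with phosphate-buffered saline (PBS). There were 3 libraries in each group, and both groups carried the Apoe-/- genotype, so no library comes from mice with intact Apoe. The sources used here do not give age, sex, gut segment or how many mice stand behind a library, so a p-value covers the spread of these libraries alone, which may be technical.

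Innate immune cells recognise yeast through the sugars of its wall. Dectin-1 (Clec7a) binds beta-glucan and dectin-2 (Clec4n) binds mannan. Both receptors signal through the kinase SYK to the adaptor CARD9, which joins BCL10 and the paracaspase MALT1 in a complex that activates NF-kappa B. TLR2 and TLR4 recognise other wall components and signal through MYD88. These receptors are best known from macrophages, dendritic cells and neutrophils, whereas several of the downstream proteins are also made by epithelial cells.

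Totals were between 21406930 and 24891735 counts per library, and for a gene without counts 3 counts, the limit that a count of 0 allows, stand for 0.113 to 0.148 CPM (counts scaled to a library size corrected by TMM; counting error only). Reads on Apoe itself were present in every library (PBS 83.2 ± 23.3 CPM, Candida albicans 62.1 ± 12.5 CPM, SD, n = 3 each). The libraries differed widely in RNA of marker genes of several cell types. Summed smooth muscle markers (10 of 10 detected) ranged from 524 to 7055 CPM in PBS and from 206 to 1792 CPM with Candida albicans, and summed B cell markers (8 of 8) from 78.8 to 233 CPM in PBS and from 1.95 to 235 CPM with Candida albicans. Candida albicans replicates 2 and 3 had almost no B cell marker RNA, at 1.95 and 2.93 CPM. Tuft cell markers were between 403 and 543 CPM in PBS and between 91.2 and 164 CPM with Candida albicans, and mature enterocyte markers between 6302 and 22919 CPM and between 33154 and 44329 CPM, so neither list overlapped between the groups (exact two-sided permutation p = 0.1 for each, the smallest that 3 against 3 allows). M cell markers (65.7 to 96.6 CPM in PBS, 22.9 to 60.7 CPM with Candida albicans) and plasma cell markers (209.9 to 251 against 260.3 to 309 CPM, the same p for both) did not overlap either. Both lists were split. Among M cell markers Spib was lower (means 59.8 against 21.3 CPM) and Ccl20 higher (0.62 against 5.35 CPM). Among plasma cell markers Jchain was higher (14.7 against 54.3 CPM), and Xbp1, the most abundant, overlapped (213 against 225 CPM). Mzb1 and Derl3 had negative log2 fold changes (-0.30 and -0.29). The mitochondrial share of counts (5.89% to 8.92% against 3.19% to 4.63%) did not overlap, and the part of these differences in the results was not tested. Pan-epithelial markers, the check of the labelled tissue, reached 11332 CPM or more in every library. In bulk RNA, fewer cells of a type and less RNA per cell cannot be told apart.

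None of the 10 genes passed the adjusted threshold, and the 95% intervals of 8 of them included 0. In edgeR's quasi-likelihood test of the log2 fold change (log2FC) between Candida albicans and PBS, with Benjamini-Hochberg adjustment over all 16313 genes, 0 of 10 members had an adjusted p under 0.05, where the background was 0% of all genes, and 0 of 10 had one under 0.1, where it was 12.6% (6.61% higher, 6.04% lower). At an unadjusted p under 0.05 there were 2 members, Bcl10 on the higher side and Tlr4 on the lower, where the background was 29.6% of all genes (13.4% higher, 16.2% lower). The libraries of the groups did not overlap in CPM for 1 member, Bcl10, where the background was 35.6% (17.6% higher, 18.1% lower). Log2 fold changes were negative for 6 members and positive for 4, with a median of -0.11, beside -0.16, 60.5% negative and 39.5% positive over all genes. That median depends on the scaling: over all genes it was -0.08 with DESeq2 size factors and -0.45 with library totals alone.

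**Figure D1:**
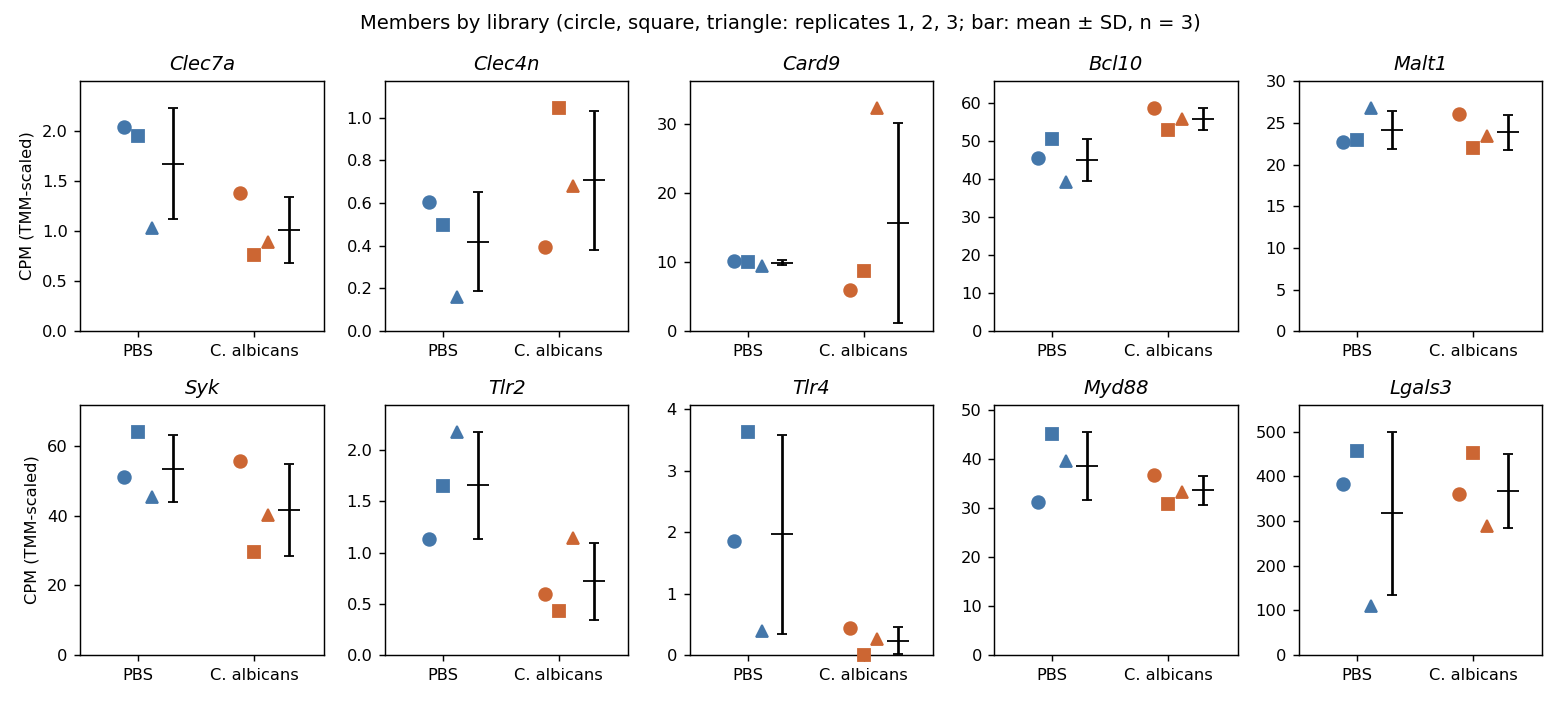
Level of each of the 10 genes in each library, in CPM on linear axes that start at 0, for PBS (blue) and Candida albicans (orange); symbols give replicates 1 to 3, and bars the mean ± SD (n = 3). Only for Bcl10 do the groups stay apart, and for Card9 the PBS libraries lie between 9.49 and 10.2 CPM while Candida albicans replicate 3 stands at 32.3 CPM.

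Both lectin receptor genes had few counts. Clec7a (ENSMUSG00000079293, chromosome 6, 129461591 to 129472779, minus strand, mm10), annotated as a polymorphic pseudogene, a class used for genes that are intact in only some strains, had 54, 47 and 26 counts in the PBS libraries, in the order of their replicate numbers, and 28, 16 and 21 in those with Candida albicans. These correspond to 2.04, 1.94 and 1.03 CPM and to 1.38, 0.76 and 0.89 CPM. PBS replicate 3 lay inside the Candida albicans range, so the groups overlapped. Its log2FC was -0.72 (SE 0.44, adjusted p = 0.29 by edgeR's quasi-likelihood test, 95% interval -1.76 to 0.32), and it lay between -1.01 (without Candida albicans replicate 1) and -0.45 (without PBS replicate 1) when 1 library was left out. Clec4n (ENSMUSG00000023349, chromosome 6, 123229843 to 123247021, plus strand) had 16, 12 and 4 counts in PBS and 8, 22 and 16 with Candida albicans, or 0.60, 0.50 and 0.16 CPM against 0.39, 1.05 and 0.68 CPM. The highest library was a Candida albicans one, but replicate 1 of that group lay inside the PBS range. The log2 fold change was 0.74 (SE 0.63, adjusted p = 0.43, 95% interval -0.75 to 2.23). It moved between 0.36 (without Candida albicans replicate 2) and 1.22 (without PBS replicate 1), was 0.39 without PBS replicate 3 and 0.22 when the smooth muscle score was a covariate, and reached 1.51 without replicate 1 of both groups.

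The lectin and phagocytic receptor list holds 14 other genes. Of these, 10 were tested and 0 had an adjusted p under 0.05, with a median log2 fold change of -0.36. At an unadjusted p under 0.05 there was 1 higher and 1 lower, beside 13.4% and 16.2% of all genes. The counts and medians of the lists that follow include any of the 10 members they hold. Clec4d, Clec4e, Clec1a and Cd209a did not pass the count filter. Fcer1g, the signalling chain that dectin-2 and other receptors use, had 4.19, 4.795 and 4.92 CPM in PBS and 4.44, 4.56 and 4.496 CPM with Candida albicans, a log2FC of -0.04 (SE 0.21, 95% interval -0.56 to 0.47). Cd36, a scavenger receptor that enterocytes also use for fatty acid uptake, was the higher one, at 22.3, 13.9 and 7.98 CPM against 54.8, 50.04 and 24.7 CPM (log2FC 1.55, SE 0.45, adjusted p = 0.099). Mrc1, the macrophage mannose receptor, was the lower one, at 3.74, 3.80 and 3.02 CPM against 2.07, 1.62 and 1.95 CPM (log2FC -0.90, SE 0.28, adjusted p = 0.11). Fcer1g and Mrc1 fall outside the naming rule and were chosen after their values were seen. Fcgr2b, the inhibitory Fc receptor of B cells and myeloid cells, had 9.07, 4.59 and 2.54 CPM in PBS and 6.12, 0.38 and 0.38 CPM with Candida albicans (log2FC -1.24, SE 1.14), low in the same 2 libraries as the B cell markers. Itgb2, the shared subunit of the leukocyte integrins, had a log2FC of -0.53 (SE 0.50).

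Marker sums of the immune cells that carry these receptors overlapped between the groups. The macrophage and dendritic cell markers (14 of 14 detected, 13 tested, 6 of these with a negative log2 fold change) summed to 129.9, 132 and 60.4 CPM in the PBS libraries and to 129, 69.8 and 60.2 CPM in the Candida albicans libraries (exact two-sided permutation p = 0.5). PBS replicates 1 and 2 and Candida albicans replicate 1 were the high libraries, which are also the 3 highest for Clec7a and for the B cell sum. Lyz2 alone made up 60.0, 69.3 and 63.9 CPM there and 17.1, 11.4 and 6.36 CPM in the other libraries. Without Lyz2 (a choice made once the values were seen), the other 13 markers summed to 69.9, 62.7 and 43.3 CPM in PBS and to 64.9, 58.4 and 53.8 CPM with Candida albicans. Cd163 was at 0 in Candida albicans replicate 3. The neutrophil markers summed to between 0.318 and 10.4 CPM in PBS and between 0.382 and 0.938 CPM with Candida albicans, and Mpo was at 0 in every library. The upper value was PBS replicate 2, where Ly6g alone had 9.34 CPM. The difference of the sums on the log2 scale was -1.46 with that library and -0.12 without it, and 1 of the 7 markers passed the filter. The part of these cells in the Clec7a and Clec4n values was not tested.

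Both Toll-like receptor genes had their higher mean in PBS, without passing the test. Tlr2 (ENSMUSG00000027995, chromosome 3, 83836272 to 83841767, minus strand), whose product recognises lipoproteins and yeast wall components, had 30, 40 and 55 counts in PBS and 12, 9 and 27 with Candida albicans, or 1.13, 1.65 and 2.18 CPM against 0.59, 0.43 and 1.15 CPM. PBS replicate 1 and Candida albicans replicate 3 were almost level, so the groups overlapped. The log2FC was -1.19 (SE 0.50, adjusted p = 0.17 by edgeR's quasi-likelihood test, 95% interval -2.38 to 0.0051). Tlr4 (ENSMUSG00000039005, chromosome 4, 66827584 to 66930284, plus strand), the receptor for lipopolysaccharide that also senses mannan, had 49, 88 and 10 counts in PBS and 9, 0 and 6 with Candida albicans, or 1.85, 3.64 and 0.40 CPM against 0.44, 0 and 0.25 CPM. Candida albicans replicate 2, with no count, may hold up to 0.143 CPM. PBS replicate 3 lay below Candida albicans replicate 1, so these groups overlapped as well. Its log2FC was -3.05 (SE 1.15, adjusted p = 0.15), with a wide 95% interval of -5.81 to -0.28, and without PBS replicate 2 it was -2.25. PBS replicate 2, the highest library for Tlr4, had the lowest smooth muscle sum of its group (524 CPM) and, through Ly6g alone, the highest neutrophil sum (10.4 CPM). Csf3r, the only neutrophil marker that passed the filter, did not follow Ly6g, at 0.94, 0.87 and 0.20 CPM in PBS. The part of other cells in the Tlr4 value was not tested.

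Myd88 (ENSMUSG00000032508, chromosome 9, 119335934 to 119341411, minus strand), the adaptor of both Toll-like receptors, was far better covered. It had 31.3, 45.2 and 39.6 CPM in PBS and 36.8, 30.8 and 33.3 CPM with Candida albicans. Every Candida albicans library lay within or just below the PBS range. The log2FC was -0.20 (SE 0.16, adjusted p = 0.41, 95% interval -0.59 to 0.18), and -0.0072 without PBS replicate 2. In GENCODE M21, 290 exon bases of Myd88 (11.3%) overlap Acaa1a on the opposite strand, and the strand setting of the counting is not given in the sources used here. Acaa1a had a log2FC of 0.77 (SE 0.16, adjusted p = 0.079), and reads in the shared bases cannot be told apart.

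In the Toll-like receptor list, 14 of 17 receptors and co-receptors were tested, of which 10 had a negative log2FC (median -0.25), beside 60.5% of all genes. Below an unadjusted p of 0.05 lay 0 higher and 3 lower genes: Tlr1, Unc93b1 and Tlr4. Over all genes 13.4% were higher and 16.2% lower at that p. Tlr1, the partner of TLR2, had 9.03, 11.9 and 7.70 CPM in PBS and 6.67, 2.85 and 2.33 CPM with Candida albicans (log2FC -1.27, SE 0.44, adjusted p = 0.12), and the groups did not overlap. Unc93b1, which escorts the endosomal receptors, had a log2FC of -0.44 (SE 0.16), Tlr3 -0.33 (SE 0.20) and the co-receptor Cd14 -0.16 (SE 0.34). Tlr9, which B cells express, had 3.33, 1.74 and 0.48 CPM in PBS and 5.13, 0.19 and 0.04 CPM with Candida albicans, high and low in the same Candida albicans libraries as the B cell sums. Tlr9 falls outside the naming rule, and its choice came after its values were known. Of the 17 adaptor and kinase genes 15 were tested (median 0.13). Below an unadjusted p of 0.05 lay 5 higher and 1 lower, beside the same 13.4% and 16.2% of all genes. The lower one was Irak1, the kinase recruited by MYD88, at 34.5, 37.7 and 47.6 CPM against 21.8, 24.7 and 24.6 CPM (log2FC -0.75, SE 0.15, adjusted p = 0.078). Its paralog Irak2 was on the higher side, at 86.0, 61.3 and 61.7 CPM against 141, 101 and 114 CPM (log2FC 0.76, SE 0.19, adjusted p = 0.085). Ticam1, the adaptor of the MYD88-independent branch, had a log2FC of 0.60 (SE 0.14) and Tab3, a partner of the kinase TAK1, 0.48 (SE 0.17).

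Syk (ENSMUSG00000021457, chromosome 13, 52583173 to 52648792, plus strand), the kinase that lectin receptors recruit, had 51.0, 64.2 and 45.3 CPM in PBS and 55.6, 29.4 and 40.1 CPM with Candida albicans. Candida albicans replicate 1 was higher than PBS replicates 1 and 3, and the other 2 Candida albicans libraries were the lowest of all. The log2FC was -0.36 (SE 0.25, adjusted p = 0.35 by edgeR's quasi-likelihood test, 95% interval -0.96 to 0.24). B cells express Syk; their marker sums were 235, 1.95 and 2.93 CPM in the same Candida albicans libraries, and their part in the value was not tested. Without Candida albicans replicate 1 the log2 fold change was -0.62, and without replicate 2 it was -0.15.

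The kinases and exchange factors that work beside SYK were divided. All 16 listed genes were tested, and 0 had an adjusted p under 0.05. At an adjusted p under 0.1, 4 were higher and 4 lower, beside 6.61% and 6.04% of all genes. The median log2FC was -0.26, beside -0.16 over all genes. On the lower side, Vav1, an exchange factor of blood cells, had 31.5, 51.9 and 33.1 CPM against 14.96, 8.60 and 11.1 CPM (log2FC -1.75, SE 0.28, adjusted p = 0.073). The tuft cell marker sum differed by -1.96 on the log2 scale. On the higher side, the ubiquitin ligase gene Cbl had 72.1, 67.6 and 68.2 CPM against 99.2, 101 and 111 CPM (log2FC 0.59, SE 0.10, adjusted p = 0.073). Vav2, the more widely expressed relative of Vav1, had 86.5, 81.5 and 61.9 CPM against 142, 116 and 122 CPM (log2FC 0.73, SE 0.16, adjusted p = 0.079). Prkcd, the protein kinase C that phosphorylates CARD9, had a log2FC of 0.65 (SE 0.19, adjusted p = 0.096); the naming rule does not cover it, and its choice came after its value was known. The part of tuft cells and enterocytes in these values was not tested.

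Of the 3 subunits of the complex, 1 had its groups apart in CPM. Card9 (ENSMUSG00000026928, chromosome 2, 26352176 to 26360918, minus strand) had 269, 243 and 239 counts in PBS and 120, 182 and 761 with Candida albicans, or 10.2, 10.04 and 9.49 CPM against 5.92, 8.65 and 32.3 CPM. The PBS libraries were close together (9.90 ± 0.36 CPM, SD, n = 3), whereas the Candida albicans libraries spread widely (15.6 ± 14.5 CPM), with 2 below the PBS range and replicate 3 far above it. Its log2FC of 0.66 (SE 0.62, adjusted p = 0.48, 95% interval -0.83 to 2.15) rested on that library, since without Candida albicans replicate 3 it was -0.43 (SE 0.26). It was also negative, at -0.71, when the smooth muscle score was a covariate. Replicate 3 was 3.18 times the next highest library. Over all tested genes, 4 of 16313 (0.0245%) had Candida albicans replicate 3 as the highest library by 3-fold or more. The number was 21, 44 (0.27%) and 13 for the PBS libraries in replicate order, and 6 and 3 for Candida albicans replicates 1 and 2. Card9 is itself among the 4, and the library was picked by its Card9 level. The share is therefore no measure of how unusual Card9 is. In GENCODE M21, 87 exon bases of Card9 (3.79%) overlap the opposite-strand transcript Gm13562, which the counting may not have kept apart.

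Bcl10 (ENSMUSG00000028191, chromosome 3, 145922804 to 145934356, plus strand), the link between CARD9 and MALT1, had 45.5, 50.5 and 39.3 CPM in PBS and 58.8, 53.1 and 55.9 CPM with Candida albicans. All 3 Candida albicans libraries were above all PBS libraries in CPM, a pattern shared by 17.6% of tested genes. As TPM (length-scaled abundance) the groups overlapped, at 28.2, 30.7 and 25.1 TPM in PBS and 30.8, 27.5 and 31.2 TPM with Candida albicans. The log2FC was 0.31 (SE 0.13, unadjusted p = 0.044, adjusted p = 0.16 by edgeR's quasi-likelihood test, 95% interval 0.01 to 0.61). It ranged from 0.26 to 0.45 when 1 library was left out, and it was 0.03 under library totals alone, where the median of all genes was -0.45. Malt1 (ENSMUSG00000032688, chromosome 18, 65430962 to 65478823, plus strand), the paracaspase, had 22.7, 23.0 and 26.8 CPM in PBS and 26.1, 22.0 and 23.5 CPM with Candida albicans. The groups covered nearly the same range. Its log2FC was -0.02 (SE 0.13, adjusted p = 0.93, 95% interval -0.34 to 0.30), the smallest of the 10, and its sign turned under 8 of 15 alternatives.

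**Figure D2:**
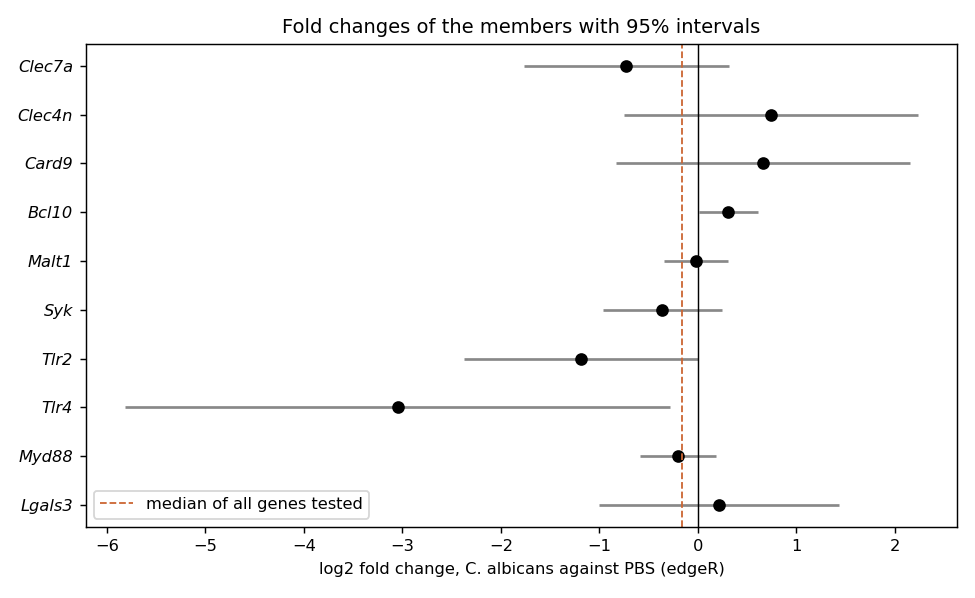
Log2 fold change of each of the 10 genes, Candida albicans against PBS, from edgeR (points) with 95% intervals (lines), beside 0 (solid line) and the median of all tested genes, -0.16 (dashed line). Malt1 has a narrow interval around 0 (-0.34 to 0.30), and those of Clec4n, Card9 and Tlr4 are wide.

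The start regions of 7 of the 10 genes were used, taken from RefSeq (GRCm38.p6), each covering 250 bases before and 50 after a start site. The windows of Card9, Bcl10 and Tlr2 are shown 5′ to 3′ on the gene's strand. Card9 stood apart in 1 library, the groups of Bcl10 did not overlap in CPM, and Tlr2 had an NF-kappa B type match. Capitals mark matches on either strand to GGAAGT, the core bound by ETS factors such as the myeloid factor PU.1, or to GGGANTTCC, an NF-kappa B type motif.
Card9, chr2:26360860-26361159, minus strand: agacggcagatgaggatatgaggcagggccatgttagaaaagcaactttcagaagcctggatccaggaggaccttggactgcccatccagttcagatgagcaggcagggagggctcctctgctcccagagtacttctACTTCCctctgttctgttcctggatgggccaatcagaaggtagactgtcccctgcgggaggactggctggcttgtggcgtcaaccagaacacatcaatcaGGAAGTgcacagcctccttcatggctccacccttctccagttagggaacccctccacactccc
Bcl10, chr3:145924012-145924311, plus strand: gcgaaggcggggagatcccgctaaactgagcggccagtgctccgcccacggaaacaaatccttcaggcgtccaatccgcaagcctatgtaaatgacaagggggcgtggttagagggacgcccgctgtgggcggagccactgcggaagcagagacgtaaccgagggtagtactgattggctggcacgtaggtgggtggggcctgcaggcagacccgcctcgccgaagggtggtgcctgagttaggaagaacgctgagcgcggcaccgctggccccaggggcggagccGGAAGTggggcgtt
Tlr2, chr3:83841559-83841858, minus strand: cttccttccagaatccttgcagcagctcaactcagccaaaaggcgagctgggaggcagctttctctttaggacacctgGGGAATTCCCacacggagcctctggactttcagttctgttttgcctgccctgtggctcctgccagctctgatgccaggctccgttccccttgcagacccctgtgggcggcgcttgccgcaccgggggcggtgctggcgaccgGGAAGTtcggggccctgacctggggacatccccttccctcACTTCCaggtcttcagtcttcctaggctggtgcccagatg
These 7 genes have 9 windows, since Clec7a and Syk have 2 each. The NF-kappa B type motif was found in 1 of the 9, that of Tlr2, where its matches on both strands overlap, and in 1.68% of 32851 RefSeq windows of the same length. The ETS core was found in 5 of the 9 and in 23.8% of all windows. A looser NF-kappa B pattern, any 5 bases between GGG and CC, was in 5 of the 9 and in 50.8% of all windows. The letters were chosen after these windows were read, and the looser pattern was searched first. The matches describe these letters and were not tested as binding sites.

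Of the 17 genes that encode the complex, its relatives and its partners, 15 were tested (median log2FC -0.29). Below an unadjusted p of 0.05 lay 1 higher (Bcl10) and 1 lower, beside 13.4% and 16.2% of all genes. The lower one was Card14, a CARD protein of epithelia, at 14.0, 17.6 and 21.5 CPM against 7.16, 9.504 and 13.1 CPM (log2FC -0.83, SE 0.27, adjusted p = 0.12). Card10, a relative of Card9 in non-immune cells, had 27.7, 30.4 and 47.0 CPM against 19.7, 24.8 and 29.9 CPM (log2FC -0.50, SE 0.25). Usp15, a deubiquitinase that acts on CARD9, had a log2FC of 0.32 (SE 0.14), and Ripk2, the kinase of the NOD receptors, -0.57 (SE 0.28). Nlrp3 and Rasgrf1 did not pass the count filter.

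In the lists placed downstream of the complex, 6 of 8 MALT1 substrate genes and 8 of 11 NF-kappa B genes had a positive log2FC. Over all tested genes the share was 39.5%. Relb is in both lists, and whether these RNA levels follow the activity of the complex was not tested. In the list of MALT1 substrates, proteins that the paracaspase cleaves, all 8 genes were tested (median 0.28), and 4 higher and 0 lower genes lay below an unadjusted p of 0.05, beside 13.4% higher and 16.2% lower over all genes. Cyld, a deubiquitinase, had 42.6, 40.3 and 38.1 CPM in PBS and 53.7, 53.1 and 53.6 CPM with Candida albicans (log2FC 0.41, SE 0.10, adjusted p = 0.081). Relb, an NF-kappa B subunit, had 98.5, 64.9 and 59.6 CPM against 137, 115 and 169 CPM (log2FC 0.92, SE 0.24, adjusted p = 0.087). Tnfaip3, the inhibitor A20, had 53.7, 47.4 and 38.1 CPM against 63.8, 64.6 and 86.9 CPM (log2FC 0.63, SE 0.18, adjusted p = 0.098). Rc3h1 had 0.39 (SE 0.14). Among NF-kappa B kinases and subunits all 11 were tested (median 0.25), with 3 higher and 0 lower below that p: Relb, Chuk (0.55, SE 0.16), which encodes IKK alpha, and the inhibitor gene Nfkbib (0.46, SE 0.16). Nfkbia, which encodes I kappa B alpha, had 0.45 (SE 0.19).

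Candida albicans replicate 3, the library with the high Card9 level, was also the highest for 4 of 8 MALT1 substrate genes and for 5 of 11 NF-kappa B genes, with Relb counted in both, while it was the highest for 10.5% of all tested genes. In the other lists it was the highest for 0 of 5 cytokine genes, 0 of 12 lectin receptor genes, 0 of 8 galectins, 1 of 15 genes of the complex (Card9 itself), 1 of 15 Toll-like receptor adaptors, 2 of 14 Toll-like receptors, 2 of 16 kinases and 1 of 8 epithelial receptors. Nfkbia had 65.0, 66.7 and 52.5 CPM in PBS and 69.8, 75.4 and 106 CPM in the Candida albicans libraries. Zc3h12a, an RNase that MALT1 cleaves, had 37.6, 37.5 and 51.9 CPM against 35.6, 36.4 and 70.1 CPM (log2FC 0.16, SE 0.30). Ccl20, a chemokine gene that NF-kappa B activates in epithelia, had 0.42, 0.74 and 0.71 CPM against 3.65, 0.998 and 11.4 CPM (log2FC 3.09, SE 0.88, adjusted p = 0.097). Zc3h12a and Ccl20 fall outside the naming rule and were chosen after their values were seen. Ccl20 is also in the M cell marker list, whose sum was lower with Candida albicans. For the coding genes next to Card9 and for Gm13562 the highest library was a PBS one, though within the Candida albicans group replicate 3 was the highest. Gpsm1 had 2.91, 2.38 and 4.11 CPM, Dnlz 24.0, 25.3 and 25.7 CPM, Snapc4 11.8, 11.9 and 13.3 CPM and Sdccag3 59.4, 58.4 and 62.0 CPM in that group. Gm13562 had 0.30, 0.29 and 0.59 CPM there and 0.68, 0.99 and 0.56 CPM in PBS.

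**Figure D3:**
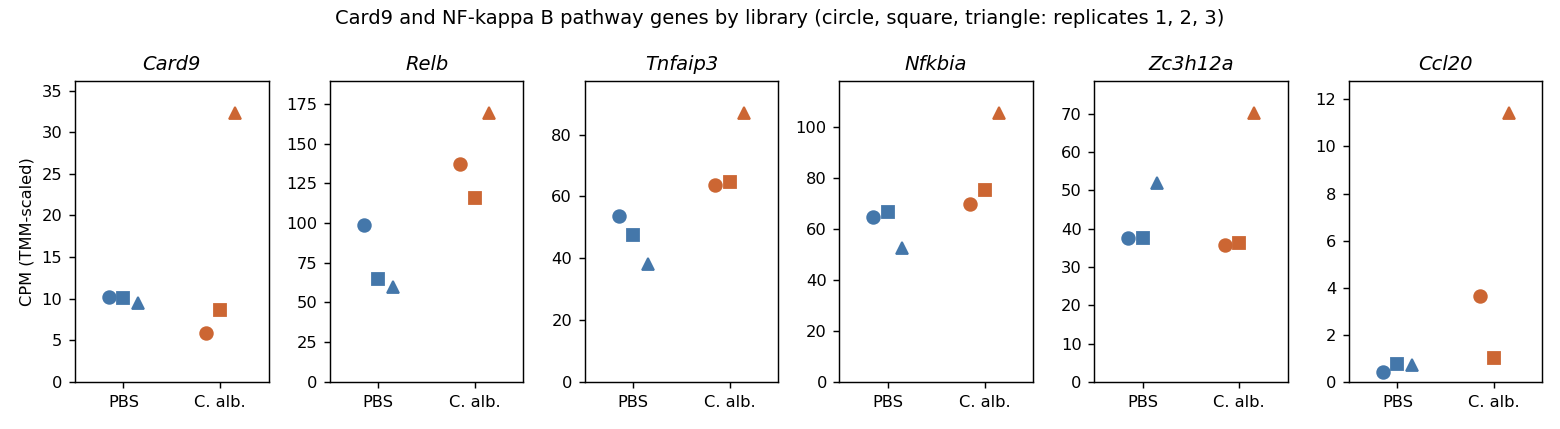
Card9, 4 genes of NF-kappa B signalling and Ccl20 by library, in CPM on linear axes that start at 0, for PBS (blue) and Candida albicans (orange), with symbols for replicates 1 to 3; the genes beside Card9 were chosen after their values were seen. The triangle of Candida albicans replicate 3 is the highest point in each panel, at 32.3 CPM for Card9 and 169 CPM for Relb. That shared position cannot serve as a test, since the genes were chosen with it known. Over the whole lists this library was the highest for 4 of 8 MALT1 substrate genes and 5 of 11 NF-kappa B genes.

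Most cytokine genes of the CARD9 response were below the filter. Of 12 listed genes 5 were tested, and 0 of these lay below an unadjusted p of 0.05, beside 29.6% of all genes. Il6, Il12b, Il23a, Il10, Csf2, Cxcl1 and Cxcl2 did not pass the filter. Il1b, a cytokine gene of the pathway in myeloid cells, had 0.57, 0.70 and 0.36 CPM in PBS and 0.64, 0.43 and 0.30 CPM with Candida albicans. Il1b falls outside the naming rule, and its choice came after its values were known. Il33, an alarmin of epithelial and stromal cells, had 18.2, 4.71 and 19.4 CPM against 42.0, 35.0 and 22.2 CPM (log2FC 1.23, SE 0.53, adjusted p = 0.18), and Il18 had a log2FC of 0.69 (SE 0.41).

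Lgals3 (ENSMUSG00000050335, chromosome 14, 47367751 to 47386160, plus strand), which encodes galectin-3, a lectin of epithelial cells and macrophages that binds beta-mannosides of the Candida albicans wall, was by far the most abundant of the 10. It had 384, 458 and 109 CPM in PBS and 361, 453 and 289 CPM with Candida albicans. PBS replicate 3 was low and the other 5 libraries lay between 289 and 458 CPM. The log2FC was 0.21 (SE 0.51, adjusted p = 0.79 by edgeR's quasi-likelihood test, 95% interval -1.005 to 1.43), and it was -0.16 (SE 0.21) without PBS replicate 3 and -0.04 under library totals alone. Of the other galectin genes Lgals6 is not in the table by that name and Lgals7 did not pass the filter. Over the 8 tested, the median log2FC was -0.21. Below an unadjusted p of 0.05 lay 0 higher and 1 lower, Lgals12 (-0.95, SE 0.39), beside 13.4% and 16.2% of all genes. Lgals12 and Lgals4 fall outside the naming rule and were chosen after their values were seen. Lgals4, an abundant galectin of enterocytes, had 0.17 (SE 0.20), Lgals2 -0.33 (SE 0.27), Lgals9 -0.34 (SE 0.29) and Lgals8 0.16 (SE 0.13). Lgals1, a galectin of stromal cells, had 55.9, 4.59 and 22.8 CPM in PBS and 14.9, 1.09 and 0.55 CPM with Candida albicans (log2FC -2.34, SE 1.38), in the same order across libraries as the smooth muscle sums.

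Of the epithelial proteins that Candida albicans binds or acts through, growth factor ligands included, all 8 listed genes were tested (median log2FC 0.26). Below an unadjusted p of 0.05 lay 1 higher and 0 lower, beside 13.4% and 16.2% of all genes. Erbb2, a partner of the epidermal growth factor receptor, had 186, 166 and 199.97 CPM in PBS and 261, 230.4 and 311 CPM with Candida albicans (log2FC 0.54, SE 0.16, adjusted p = 0.10). Egfr, the epidermal growth factor receptor, had 0.54 (SE 0.25). Epha2, a beta-glucan receptor of oral epithelium, had 134, 196 and 74.8 CPM against 214, 263 and 169.7 CPM (log2FC 0.68, SE 0.36, adjusted p = 0.24), and Itgb1, an integrin subunit, had -0.30 (SE 0.18). The mature enterocyte sum, given above, was higher in every Candida albicans library than in any PBS library, and its part in these values was not tested.

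**Figure D4:**
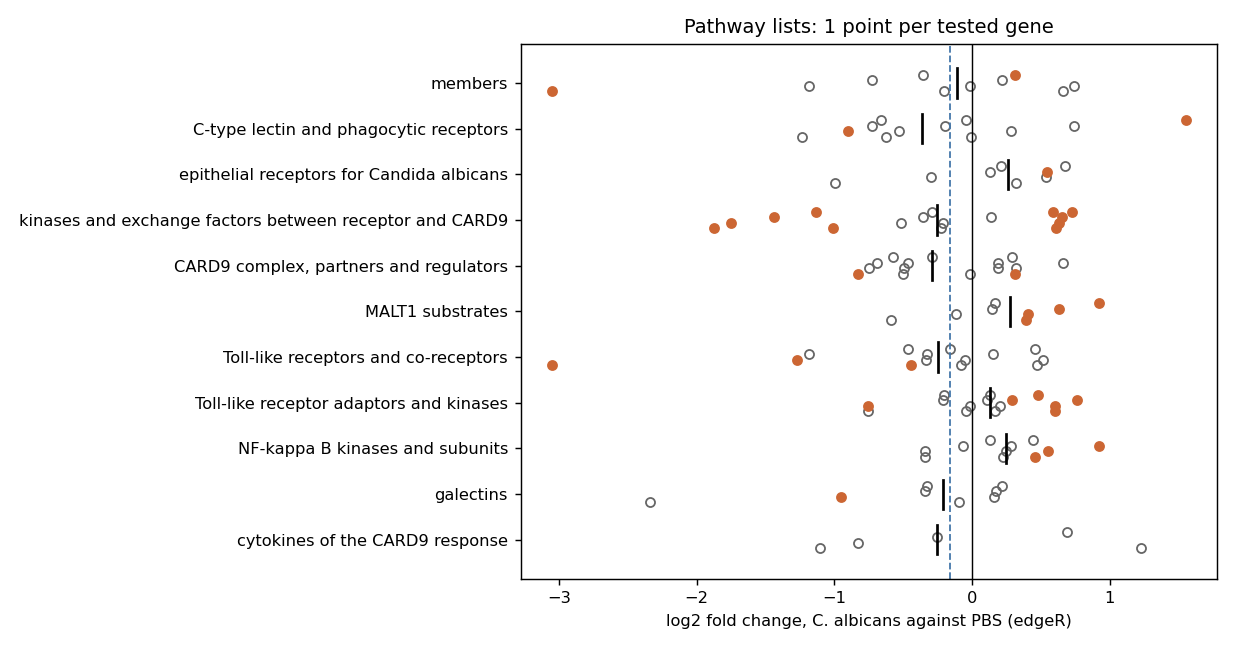
Log2 fold change of every tested gene among the 10 members and in each pathway list, from edgeR; filled points have an unadjusted p under 0.05, black bars are list medians, and the dashed line is the median of all tested genes, -0.16. No point passed the adjusted threshold, and the MALT1 substrate and NF-kappa B lists have medians of 0.28 and 0.25.

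Over all 111 tested genes of the pathway lists, the 10 members included, the median log2FC was -0.04. None had an adjusted p under 0.05, and 19 higher and 12 lower lay below an unadjusted p of 0.05, beside 13.4% and 16.2% of all genes. How many were called depended on the tool and on PBS replicate 1. The DESeq2 Wald test called 21 of 111 (18.9%), 15 of them higher, where the background was 17.8% of all genes. edgeR without PBS replicate 1 called 17 of 112 (15.2%) where the background was 15.7%. In each of these the share was close to that of all genes. None of the 10 members was called under any of the alternatives run, for which the background was 1.15% (library totals), 1.9% (every counted gene kept), 0.411% (only genes that average 5 CPM, which left 6 members), 12.8% (replicate number as a block), 0.257% (smooth muscle score as a covariate), 13% (replicate 1 of both groups removed) and 0% for DESeq2 size factors, limma-voom and the removal of any other single library. The lowest adjusted p of a member under any alternative was 0.0503, for Tlr4 in the DESeq2 Wald test.

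**Figure D5:**
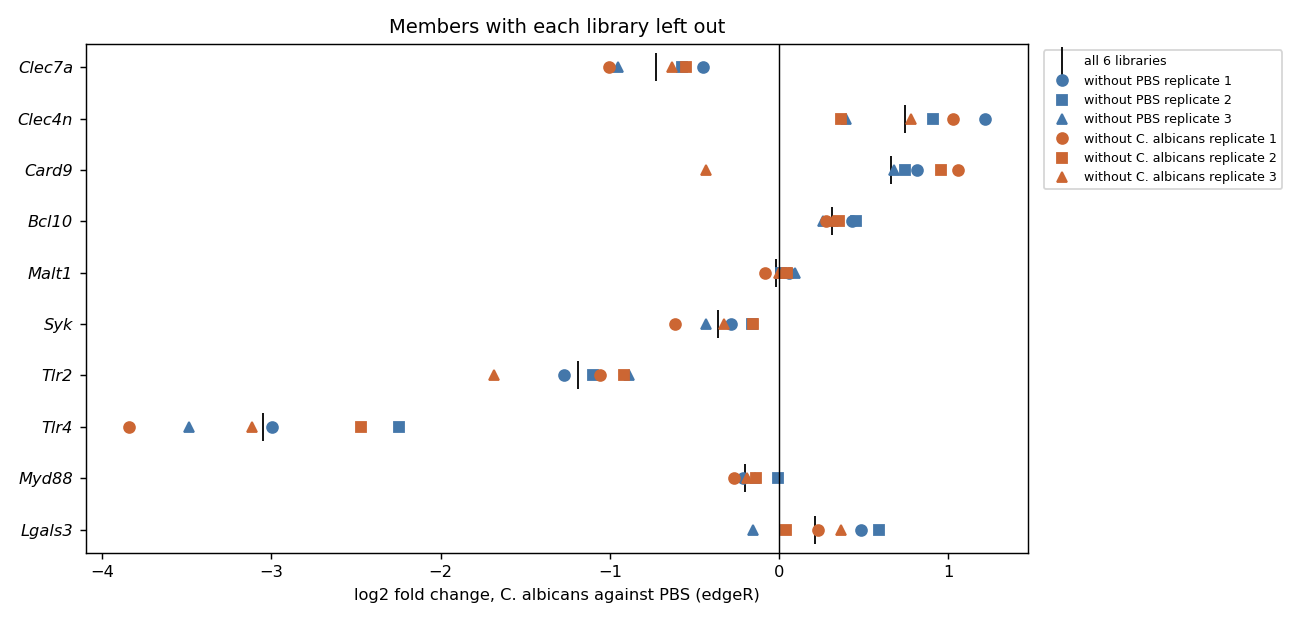
Log2 fold change of each of the 10 genes, Candida albicans against PBS, with all 6 libraries (bar) and with each library left out in turn (points, PBS in blue and Candida albicans in orange). The sign of Card9 turns to -0.43 without Candida albicans replicate 3 and that of Lgals3 to -0.16 without PBS replicate 3, and Malt1 stays between -0.08 and 0.10.

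Per length, as TPM (length-scaled abundance), the genes fell into 3 tiers in both groups. Lgals3 led with 480 ± 272 TPM in PBS (SD, n = 3) and 479 ± 92.05 TPM with Candida albicans. Myd88, Bcl10, Syk, Card9 and Malt1 followed in PBS with 42.6 ± 7.35, 28.0 ± 2.83, 16.2 ± 2.55, 12.2 ± 0.27 and 5.85 ± 0.69 TPM, and the ranges of neighbours in that order did not overlap. With Candida albicans the order was Myd88 (31.8 ± 3.05), Bcl10 (29.8 ± 1.99), Card9 (17.0 ± 16.4), Syk (10.8 ± 3.37) and Malt1 (4.95 ± 0.45), and there the ranges of Myd88 and Bcl10, of Bcl10 and Card9, and of Card9 and Syk overlapped. The 4 receptor genes formed the lowest tier, with Clec7a at 1.79 ± 0.57, Tlr2 at 1.56 ± 0.52, Tlr4 at 0.99 ± 0.80 and Clec4n at 0.83 ± 0.46 TPM in PBS, where the ranges of neighbours overlapped. With Candida albicans Clec4n came first among them, at 1.21 ± 0.54 TPM, and Tlr4 last, at 0.10 ± 0.10 TPM. The ranges of Clec4n and Clec7a, and of Clec7a and Tlr2, overlapped there as well.

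The genes most like a member across the 6 libraries were found by the root mean square difference of log2 CPM after centring each gene on its mean. For Clec7a these were Tgfbr2 (0.12), Spa17 (0.15), Serpina1e (0.15), Ptpn6 (0.16) and Hmox1 (0.17), of 12603 genes with a mean of 1 CPM or more. Ptpn6 encodes the phosphatase SHP-1, which is also in the kinase list. Card9 had no comparably close gene among 9952 with a mean of 5 CPM or more: the nearest were Car12 (0.29), Rnf152 (0.36), Zdhhc19 (0.39), Zfp868 (0.40) and Acot1 (0.42). Car12 had 10.9, 19.6 and 13.5 CPM in PBS and 8.94, 12.3 and 34.9 CPM with Candida albicans, and so shared the high value of replicate 3. For Lgals3 they included Tnfrsf21 (0.14), Gch1 (0.22), Eno1b (0.28) and Csf1r (0.28), and Tnfrsf21 had the same low library, at 62.8, 63.1 and 15.9 CPM in PBS and 50.01, 58.5 and 48.2 CPM with Candida albicans.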

How the data were processed

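The authors deposited unnormalized read counts for each Ensembl gene; the submitters' processing notes name the build mm10, featureCounts 2.0.1, HISAT2 2.2.1 and Trim Galore 0.6.7, without parameters or strand setting. The table's deposited gene lengths in bases gave TPM. The software was R 4.3.3 with edgeR 4.0.16, limma 3.58.1 and DESeq2 1.42.0. Genes were kept with filterByExpr (minimum count 10, total 15) and scaled by TMM. Candida albicans was compared with PBS by a two-sided edgeR quasi-likelihood test, robust and without covariate, with Benjamini-Hochberg adjustment over 16313 genes and a threshold of 0.05. Standard errors come from the F statistic. Log2 CPM used a prior count of 2. The fit was tested on simulated counts. All pairs of replicates differed by more than sampling noise (chi-square at least 33.9 times its degrees of freedom).

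The members, lists and marker genes were chosen with earlier results of these data known. Named were all members, up to 4 non-members per list with the lowest p, if their higher group averaged at least 5 CPM, and the 5 genes most like Clec7a, Card9 and Lgals3; a few genes that this rule names are not reported here. Motif letters were chosen after the promoters were read. Symbols that had become dates, 27 in all, were restored from Ensembl identifiers. Alternatives were other scalings, tests and filters, a replicate block, a smooth muscle covariate and the removal of libraries.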

Additional observations from a re-analysis of the deposited data

How the results depend on the processing

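The count of members with an adjusted p under 0.05 was 0 under the main test and under all alternatives run, whereas counts over all genes were not stable. Over all genes and over the pathway lists, edgeR called 0 and 0 genes with all libraries, 188 and 2 with library totals only, 552 and 3 when every counted gene was kept, 43 and 1 among genes averaging 5 CPM, and 42 and 1 when the smooth muscle score was a covariate. The DESeq2 Wald test called 2897 and 21, and edgeR with replicate 1 of both groups removed called 2110 and 13. With 1 library left out the counts ranged from 0 to 2620 and from 0 to 17, and the upper values came from the removal of PBS replicate 1. With the replicate number as a block they were 2080 and 17. The numbers are not shown to pair the libraries: the correlations of same-numbered libraries' deviations from their group means were 0.58, 0.36 and 0.05. Those of differently numbered libraries lay between -0.50 (PBS replicate 2 with Candida albicans replicate 1) and 0.41 (PBS replicate 2 with Candida albicans replicate 3).

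Of 146 member values under alternatives, 12 had the opposite sign, all for Malt1, Lgals3 and Card9. Malt1 had 0.0651 with DESeq2 size factors, 0.0650 in the DESeq2 Wald test, 0.0871 with the smooth muscle covariate and between -0.0820 and 0.0963 with 1 library left out. Lgals3 had -0.0432 with library totals only and between -0.16 and 0.59 with 1 library left out. Card9 had -0.71 with the smooth muscle covariate and between -0.43 and 1.05 with 1 library left out, the lowest without Candida albicans replicate 3; the cause of the covariate's effect was not tested. Without Lyz2, chosen after seeing the data, the macrophage marker difference was 0.0344 instead of -0.31 on the log2 scale. The 4 receptor genes had at most 88 counts in a library, which limits what could be seen for them.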
